A study of Mus musculus with 18 samples.

Results

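The comparison of Ppt1 knockout mice with wild-type mice at 8 months of age, the oldest of 3 ages in the series, rests on 6 of its 18 arrays. The members are the 3 arrays whose labels describe a knockout at 8 months, from a male, a female and a male, and the 3 that describe a wild type at that age, from a male, a female and a female. The other arrays hold the same 2 genotypes at 3 and 5 months, 3 arrays a group. Total RNA of a tissue labelled brain and cochlea was measured on an Affymetrix mouse array with 45101 probe sets. The labels name no strain, no design of the knockout allele and no treatment. They do not say whether an array holds RNA of 1 mouse, so every p-value measures the spread between arrays, which may be partly technical. Except in a fit on the 8-month arrays alone, that spread is pooled over all groups of the series and not taken from these 6 arrays only.

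The product of Ppt1, palmitoyl-protein thioesterase 1, works in lysosomes, where it cleaves long-chain fatty acids from the cysteines of proteins that are being degraded. Its loss in humans causes infantile neuronal ceroid lipofuscinosis, a storage disease in which autofluorescent lipid and protein collect in lysosomes and cortical and thalamic neurons are lost. Astrocytes and microglia respond early in such brains, astrocytes with more of the filament protein GFAP and microglia with genes for phagocytosis, lysosomal digestion and lipid handling.

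The labels were checked first. The brightest Ppt1 probe set read 20.6, 14.7 and 23.4 on the 3 knockout arrays and 587, 589 and 566 on the wild-type arrays, and so did not overlap. For Ppt1 this was a log2 change of -4.11 ± 0.20 (standard error; limma adjusted p = 1.45e-11). All log2 values are of the signal plus 16, which pulls the changes of dim probe sets toward 0. Another Ppt1 probe set changed by -3.47 (adjusted p = 2.26e-08), while 2 dimmer ones changed by -0.18 and -0.59 and did not pass (adjusted p = 0.641 and 0.166).

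Brain genes were bright in the tissue. Snap25, a protein of synaptic vesicle fusion, read 7682 to 9282 in the knockout, against 8615 to 9044 in the wild type, and the myelin protein gene Mbp 10891 to 13276 over both groups. The hair cell factor Pou4f3 and the tectorial membrane gene Tecta were at or under background on 6 of 6 arrays, background being the level of the array's bacterial control probe sets (10.2 to 15.8). Other cochlear markers differed. The hair cell genes Otof (37.9 to 62.7) and Myo7a (105 to 131) and the cochlear gene Coch (142 to 187) stood above background on all 6 arrays. The remaining markers were at background on 2 to 4 arrays. Whether the tissue held cochlea was not tested. Of 32 cochlear genes 10 were bright enough to be tested and 1 rose (10.0%, against 6.97% of all genes), the myosin gene Myo6 (0.62). Of the T-cell genes, Cd3e was at background on 6 of 6 arrays and Cd3g on 5. Cd8a was so on only 2, and read 5.5 to 23.8 in the knockout and 6.5 to 39.6 in the wild type. Xist and genes of the Y chromosome matched the labelled sex on 18 of 18 arrays. In this whole-tissue RNA, more cells of a type and more RNA per cell cannot be told apart.

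The knockout arrays at 8 months were not alike. Over all probe sets tested, the median standard deviation of log2 signal was 0.20 among the 3 knockout arrays and 0.14 among the 3 wild-type arrays, and 0.13 to 0.15 in the 4 groups of the other ages. On the first principal component of the 18 arrays, which held 24.2% of the variance, knockout replicates 1 and 2 stood at 50.7 and 45.6 and replicate 3 at 9.86, while the wild-type arrays at 8 months stood between -17.1 and -14.8. Replicate 3 also had spike-in controls shifted by 0.425 on the log2 scale from their medians over the 18 arrays. The shift was -0.017 to 0.078 on the other 5 arrays at 8 months. The part of this shift in the results was not tested. The 5′ to 3′ signal ratio of actin, a measure of RNA integrity, was 0.432 to 0.482 in the knockout, against 0.501 to 0.525 in the wild type, and its part was not tested either. Many genes are therefore described below by their signal on each knockout array. Some lists have a median for each knockout array, taken over its log2 signals minus the wild-type means. Other genes and lists have only a change for the group. The standard error printed with a change rests on the spread pooled over all groups. It does not show how far the knockout arrays at 8 months differed from each other.

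Across all genes, 1550 of 27022 probe sets tested were higher in the knockout at 8 months (5.74%) and 1597 were lower (5.91%), at a limma adjusted p under 0.05 after Benjamini-Hochberg adjustment. In what follows, rose and fell mark genes past this threshold. The increases were larger than the decreases: 292 probe sets of 200 genes rose at least 2-fold and 55 of 40 genes fell as far, and 42 probe sets of 30 genes against 3 of 2 genes changed at least 4-fold. The 3 knockout arrays all lay above the 3 wild-type arrays for 3170 probe sets (11.7%) and all below for 3864 (14.3%), which includes 1413 of the 1550 increases and 1462 of the 1597 decreases.

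Of the calls 49.3% were increases, and 39.8% when the arrays were centred on their medians. The number of calls depended on single arrays and on which arrays gave the spread. Fitted on the 8-month arrays alone, 695 probe sets rose and 490 fell, 693 and 484 of them shared with the fit on all 18 arrays. The fit on the 8-month arrays, here and below, had no term for sex, which is unbalanced between these groups. Without knockout replicate 3, 2403 rose and 2966 fell. Without replicate 2 the counts were 733 and 533, without replicate 1 they were 987 and 914, and without wild-type replicate 1 they were 955 and 789; the decreases also dropped to 905 and 985 without wild-type replicates 2 and 3.

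**Figure D1:**
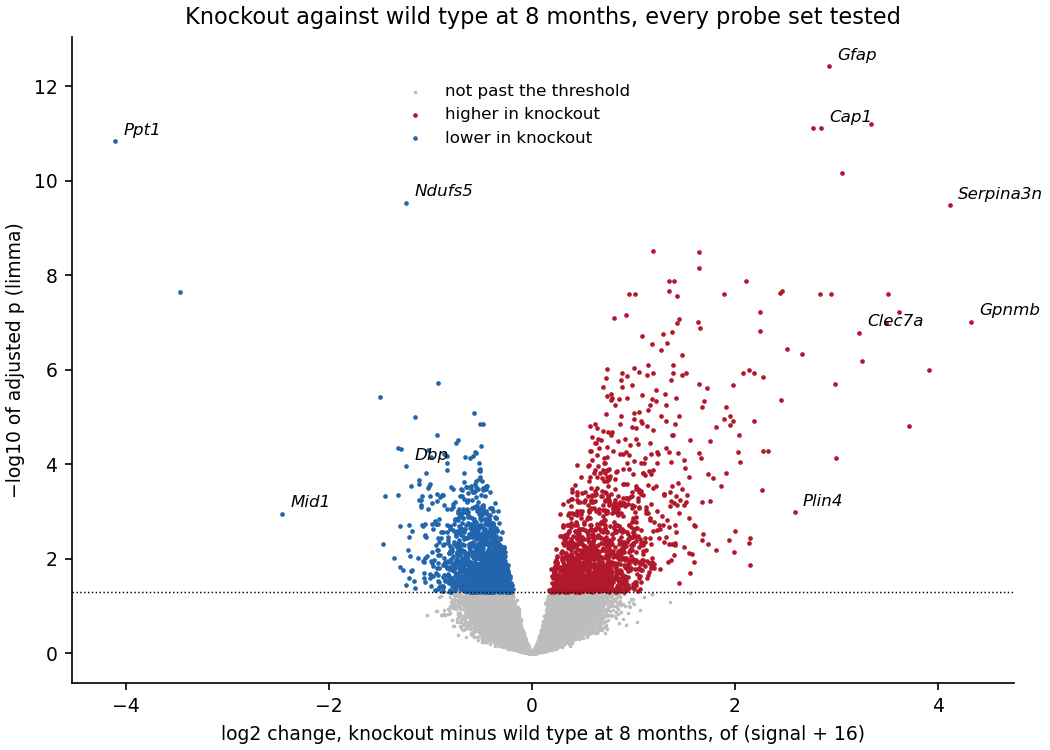
Log2 change of signal plus 16, knockout minus wild type at 8 months, against −log10 of the limma adjusted p for the 27022 probe sets tested, each point a probe set. The dotted line is an adjusted p of 0.05; the 1550 higher probe sets reach further from 0 than the 1597 lower ones, of which only Ppt1 and Mid1 passed 4-fold.

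The largest increase was that of Gpnmb, a membrane glycoprotein of phagocytes with full lysosomes. It read 1506, 1459 and 294 in the knockout, against 24.6, 35.4 and 37.2 in the wild type, a log2 change of 4.33 ± 0.37 (limma adjusted p = 9.59e-08). Serpina3n, a secreted protease inhibitor of reactive astrocytes, read 2788, 2270 and 1039 against 89.6, 102 and 86.1, a change of 4.12 ± 0.24. In both genes knockout replicate 3 was the lowest of the 3 and still stood several-fold above every wild-type array. The 15 largest increases also held the lysozyme gene Lyz2 (3.51), the galectin Lgals3 (3.49), the fungal glucan receptor Clec7a (3.23), the iron-carrier binding protein Lcn2 (3.72), the cystatin Cst7 (2.95), the GTPase Rhoj (2.99), the oncostatin M receptor Osmr (2.66), the lipid droplet protein Plin4 (2.59), the Fc receptor Fcgr2b (2.52), the macrophage perforin Mpeg1 (2.47), the actin regulator Cap1 (2.85) and Gfap (3.34). A probe set assigned to Lyz1 rose by 3.92, but its name marks it as one that can bind related transcripts, so Lyz1 and Lyz2 may share this signal. All 3 wild-type arrays were at background for Cst7, so its level of 144 ± 54.1 (SD, n = 3) in the knockout was at least 11.2-fold higher, taking the array background as the wild-type level. Of the others, 2 of the 3 wild-type arrays were at background for Lcn2 and Rhoj, and 1 for Clec7a and Plin4.

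**Figure D2:**
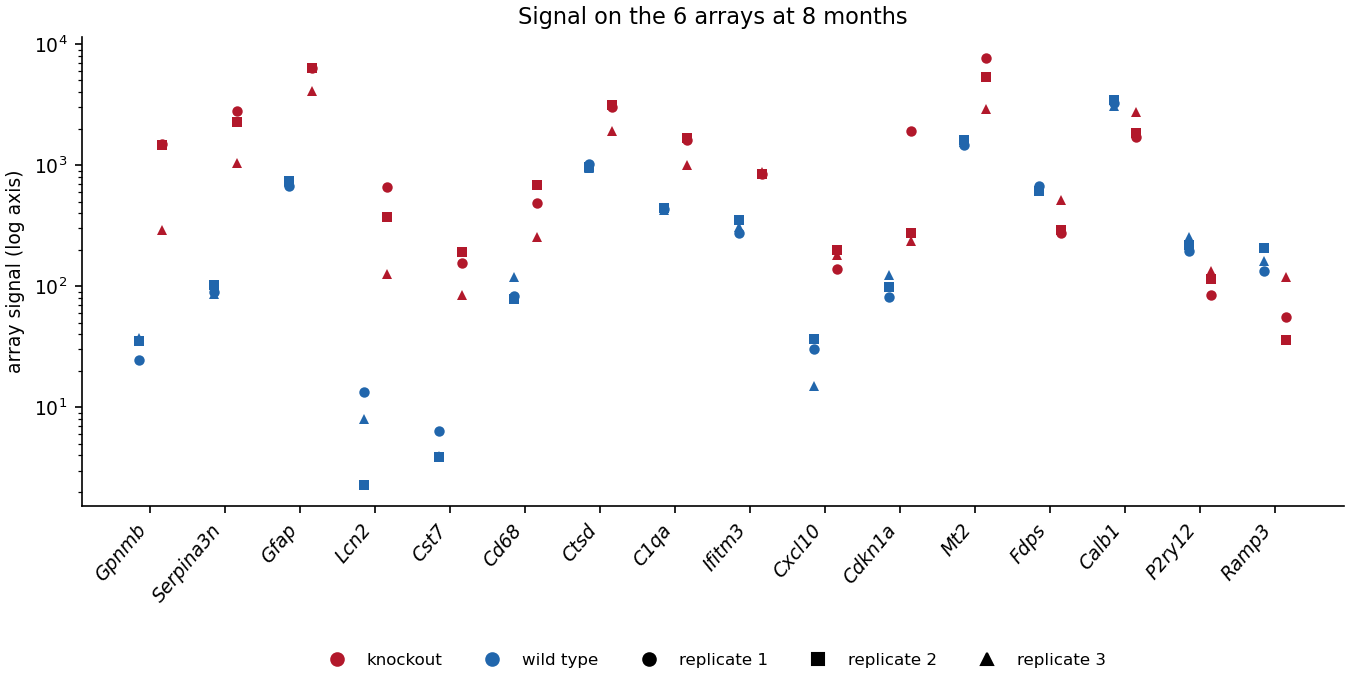
Array signal on a log axis for 16 genes at 8 months, wild type in blue and knockout in red, a marker shape for each replicate. The groups do not overlap for any gene drawn; knockout replicate 3 (triangle) is nearest to the wild type for most of them, with Ifitm3 and Cxcl10 among the exceptions.

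The gene lists below are described by their brightest probe set per gene, and 12492 genes could be read this way. Of these, 871 rose (6.97%) and 744 fell (5.96%), and the median change was -0.02. A gene that is bright only in the knockout passes the filter on dim probe sets through that group, so the counts describe the members measured and not the whole list.

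Genes of disease-associated microglia, the state that phagocytic microglia take up around degenerating tissue, rose with few exceptions. Of 28 genes listed 23 were measured, 19 rose and none fell, and the median change was 1.19. By array the median was 1.24, 1.43 and 0.71, and knockout replicate 3 was the lowest of the 3 for 23 of 23 genes. The tetraspanin Cd9 read 1481, 1622 and 1076 in the knockout, against 396 to 452 in the wild type (1.65 ± 0.11, limma adjusted p = 3.19e-09). Tyrobp, the signalling adaptor of TREM2, read 1164, 1402 and 704 against 275 to 288 (1.90 ± 0.15). Neither gene's groups overlapped.

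General markers of microglia and macrophages moved with them. Of 33 listed, 26 were measured, 23 rose and none fell, with a median of 1.03 (1.17, 1.27 and 0.69 by array); 15 rose without knockout replicate 2. The cysteine protease gene Ctss read 3181, 3589 and 2177 against 1050 to 1151 (1.43 ± 0.12). Laptm5, a lysosomal membrane protein of blood-derived cells, read 451, 580 and 400 against 182 to 198 (1.29 ± 0.12).

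The genes that mark resting microglia did not move as a block. Of 16 measured, 5 rose (31.2%), 2 fell (12.5%, against 5.96% of all genes) and 9 did not pass, and the median change was 0.01. P2ry12, the purine receptor by which resting microglia sense damage, read 84.6, 115 and 135 in the knockout, against 196, 221 and 255 in the wild type, without overlap (-0.93 ± 0.16, adjusted p = 6e-04). Fcrls, another gene of this list, read 203, 360 and 269 against 84.6, 120 and 148 and rose by 1.23 ± 0.17, and Olfml3 and Cst3 rose by 0.70 and 0.43. The other decrease was that of Siglech, a lectin of microglia, chosen after its value was seen (-0.67). Only 1 of the 2 decreases passed without knockout replicate 1, without wild-type replicate 1 or without wild-type replicate 3, and only 1 in the fit on the 8-month arrays.

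Of the reactive astrocyte list, 25 of 30 genes were measured, 21 rose and none fell, with the highest median of any list, 1.51 (1.86, 1.82 and 1.03 by array). The brightest Gfap probe set read 6313, 6303 and 4122 in the knockout, against 675, 746 and 730 in the wild type, a change of 2.93 ± 0.11 and the smallest adjusted p of the comparison (3.79e-13). The intermediate filament gene Vim read 3504, 3847 and 1723 against 585 to 639 (2.25 ± 0.19), and the calcium-binding protein gene S100a6 read 770, 840 and 492 against 140 to 154 (2.11 ± 0.16). In Gfap, Vim and S100a6, knockout replicate 3 was the lowest knockout array and lay more than 2-fold above the highest wild-type array.

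Genes that define astrocytes irrespective of their state rose less. Of 19 measured, 12 rose and 1 fell (5.26%, against 5.96% of all genes), and the median change was 0.39 (0.51, 0.49 and 0.21 by array). The water channel gene Aqp4 read 3600, 4263 and 3153 against 1272 to 1447 (1.40 ± 0.10), the membrane protein gene Mlc1 1374, 1334 and 1089 against 555 to 671 (1.01 ± 0.10) and the transcription factor gene Sox9 183, 174 and 133 against 68.3 to 71.4 (1.08 ± 0.16). None of these overlapped. The gene that fell, the amino acid transporter Slc7a10, changed by -0.41; it was named after its value was seen, and its call was lost without knockout replicate 1, without knockout replicate 2, without wild-type replicate 3 and in the fit on the 8-month arrays.

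The 3 chains of C1q, which start the classical complement pathway and tag synapses and debris for microglia, rose together. C1qa read 1600, 1669 and 998 in the knockout, against 423 to 442 in the wild type (1.66 ± 0.15, limma adjusted p = 1.31e-07). C1qb rose by 1.48 ± 0.14 and C1qc by 1.73 ± 0.19. Itgb2, a chain of complement receptor 3, read 233, 307 and 119 against 39.9 to 47.0 (1.95 ± 0.23). In all, 6 of 11 complement genes measured rose, none fell, and the median was 1.40.

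Of 15 chemokine and cytokine genes measured, 4 rose (26.7%) and 2 fell (13.3%), against 6.97% and 5.96% of all genes, and the median was 0.41. The monocyte chemokine gene Ccl12 read 35.0, 87.7 and 68.2 against 24.2, 3.66 and 1.63, the last 2 at background (1.61 ± 0.31). The alarmin gene Il33 rose by 0.81 ± 0.14, and by 0.53 without knockout replicate 2. Cx3cl1, the neuronal ligand of the microglial fractalkine receptor, read 920, 791 and 1155 against 1229 to 1274 and fell by 0.44 on the log2 scale; it did not pass without knockout replicate 2 (adjusted p = 0.0710) or in the fit on the 8-month arrays (0.0764). The count of decreases was 0 without knockout replicate 2 and in that fit, and 1 without wild-type replicate 1 or without wild-type replicate 2. Of 24 T and B lymphocyte genes only 2 were bright enough to be tested, and neither passed.

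Interferon-stimulated genes, which carry antiviral and antigen-presenting functions, had another order of the arrays than the glial lists. Of 40 listed, 32 were measured, 20 rose and none fell, with a median of 0.74. By array the median was 0.46, 0.70 and 1.04, and knockout replicate 3 was the highest of the 3 for 24 of 32 genes. Without knockout replicate 2 the count was 12, without wild-type replicate 1 it was 12, and in the fit on the 8-month arrays it was 11. The T-cell chemokine gene Cxcl10 read 137, 200 and 180 in the knockout, against 30.2, 36.4 and 15.0 in the wild type (2.19 ± 0.27, adjusted p = 1.19e-05). The GTPase gene Gbp6 read 120, 161 and 218 against 31.4 to 44.4 (1.76 ± 0.23), and Lgals3bp 433, 472 and 326 against 108 to 148 (1.64 ± 0.14). Cxcl10 and Lgals3bp did not follow the list's order of arrays.

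Genes of MHC class I presentation rose as well. B2m, the common light chain, read 3059, 3819 and 3388 in the knockout, against 1329, 1626 and 1576 in the wild type (1.2 ± 0.08, adjusted p = 3.1e-09). The heavy chain gene H2-K1 rose by 1.35 ± 0.10, H2-D1 by 0.88 ± 0.11 and the peptide-loading factor Tapbp by 0.64 ± 0.10. H2-K1 and H2-D1 are related class I genes, and the names of their probe sets mark them as able to bind related transcripts, so they may share signal. Of 14 antigen presentation genes measured, 7 rose and none fell; in the fit on the 8-month arrays 4 rose.

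The promoters of the interferon list were read for the core of the interferon-stimulated response element, which is GAAA, any 2 bases (NN) and GAAA again, on either strand of the 250 bases before the RefSeq gene start (GRCm38.p6). It was found in 10 of the 18 members that rose and had a promoter sequence (55.6%), in 12 of 26 measured members with a sequence (46.2%), and in 936 of 27025 genes of the table (3.46%). Of the 25 genes with the largest increases, 23 had a sequence and 1 held it, Cxcl10 (4.35%). Of 11 antigen presentation promoters 1 held it, that of B2m (9.09%). The promoters of 3 interferon genes and of B2m are shown because in Ifit1 and Ifit3 knockout replicate 3 was the highest array, and in Cxcl10 and B2m replicate 2 was. Ifit1, an antiviral RNA-binding protein, read 49.0, 131 and 154 in the knockout, against 42.6 to 49.8 in the wild type (0.92 ± 0.26), so its first knockout array lay within the wild type. Ifit3 read 223, 235 and 475 against 147 to 207 (0.71 ± 0.22). Both were chosen after their values were seen. Cxcl10 and B2m are described above. The promoters lie at chr5:92348890-92349139 (Cxcl10, minus strand), chr19:34640639-34640888 (Ifit1, plus strand), chr19:34583279-34583528 (Ifit3, plus strand) and chr2:122147437-122147686 (B2m, plus strand), each written 5′ to 3′ toward its gene start, with the letters of the motif or of its reverse complement in capitals:
Cxcl10: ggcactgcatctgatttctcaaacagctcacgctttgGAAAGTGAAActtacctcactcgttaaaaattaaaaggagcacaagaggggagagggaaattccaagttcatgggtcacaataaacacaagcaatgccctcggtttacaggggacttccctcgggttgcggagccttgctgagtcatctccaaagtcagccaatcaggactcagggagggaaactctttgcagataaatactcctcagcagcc
Ifit1: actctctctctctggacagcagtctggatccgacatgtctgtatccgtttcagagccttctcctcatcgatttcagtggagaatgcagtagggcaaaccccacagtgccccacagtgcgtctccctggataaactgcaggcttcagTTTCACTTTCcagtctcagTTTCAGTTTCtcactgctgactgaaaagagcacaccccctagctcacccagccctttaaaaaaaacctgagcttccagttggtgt
Ifit3: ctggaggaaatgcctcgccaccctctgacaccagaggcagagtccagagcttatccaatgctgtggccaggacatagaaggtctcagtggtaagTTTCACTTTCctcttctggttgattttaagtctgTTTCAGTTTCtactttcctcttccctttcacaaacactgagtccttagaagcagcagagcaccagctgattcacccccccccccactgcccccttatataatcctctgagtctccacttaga
B2m: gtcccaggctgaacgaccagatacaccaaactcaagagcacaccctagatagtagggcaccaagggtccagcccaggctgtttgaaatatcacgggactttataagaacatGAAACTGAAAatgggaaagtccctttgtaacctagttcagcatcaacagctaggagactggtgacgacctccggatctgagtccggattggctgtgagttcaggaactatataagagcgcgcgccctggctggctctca
The match in Cxcl10 starts 213 bases before the gene start, those in Ifit1 104 and 85 bases, those in Ifit3 156 and 122 bases, and that in B2m 139 bases. A match describes these letters only. The CLEAR element of lysosomal genes, GTCAC followed by GTGAC on either strand, was found in 1 of 43 lysosomal promoters (2.33%), that of Cln3, against 0.270% of all promoters; Cln3 itself changed by 0.08 and did not pass.

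Genes of the lysosome, the organelle in which Ppt1 acts, rose in part. Of 57 listed, 50 were measured, 26 rose, none fell and 24 did not pass, with a median of 0.41 (0.34, 0.43 and 0.25 by array). The aspartic protease gene Ctsd read 2992, 3104 and 1893 in the knockout, against 949 to 1015 in the wild type (1.43 ± 0.11, limma adjusted p = 2.74e-08). The macrophage lysosomal glycoprotein gene Cd68 read 486, 686 and 253 against 78.6 to 120 (2.14 ± 0.22), and progranulin, Grn, 1604, 1563 and 1139 against 617 to 700 (1.09 ± 0.10). The groups did not overlap for any of them.

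The enzymes that add and remove protein palmitate were called about as often as all genes: of 30 measured, 1 rose (3.33%) and 2 fell (6.67%), against 6.97% and 5.96% of all genes, and the median was -0.02. The acyltransferase gene Zdhhc17 fell by 0.28, the thioesterase gene Abhd17a fell by 0.29 and the acyltransferase cofactor gene Golga7 rose by 0.22 on the log2 scale. None of the 3 passed in the fit on the 8-month arrays (adjusted p = 0.127, 0.0935 and 0.108) or without knockout replicate 2 (0.118, 0.0613 and 0.0732), without wild-type replicate 1 (0.106, 0.162 and 0.104) or without wild-type replicate 2 (0.0553, 0.0507 and 0.0712). Zdhhc17 and Abhd17a did not pass without knockout replicate 1 either (0.0642 and 0.109), nor Abhd17a without wild-type replicate 3 (0.0738).

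Genes of cholesterol synthesis fell in part. Of 20 genes measured, 11 fell, none rose, and the median was -0.42 (-0.45, -0.48 and -0.17 by array). Fdps, which makes farnesyl pyrophosphate, read 277, 290 and 519 in the knockout, against 675, 612 and 608 in the wild type (-0.88 ± 0.14, adjusted p = 0.000436). The squalene synthase gene Fdft1 read 653, 602 and 685 against 863 to 911 (-0.49 ± 0.08), the squalene epoxidase gene Sqle 366, 316 and 383 against 525 to 563 (-0.63 ± 0.12) and the first committed enzyme, Hmgcs1, 2086, 1791 and 2436 against 2725 to 2774 (-0.42 ± 0.08). No pair of groups overlapped, and for Fdps knockout replicate 3 lay near the wild type. The count of decreases was 6 without knockout replicate 2, 7 without wild-type replicate 1 and 5 in the fit on the 8-month arrays.

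Genes that carry lipid between cells moved the other way. Of 19 measured, 10 rose and none fell, with a median of 0.42. Abca1, the exporter of cholesterol to apolipoproteins, read 1529, 1743 and 878 against 446 to 513 (1.52 ± 0.15). Apoe read 9611, 9253 and 8301 against 5885 to 6176 (0.59 ± 0.08), and the lysosomal cholesterol-binding protein Npc2 rose by 0.74 ± 0.10. The clusterin gene Clu, which is also on the astrocyte list, rose by 0.74 ± 0.07. In the fit on the 8-month arrays 6 of the 10 rose.

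Of 23 genes of oxidative and metal stress, 13 rose and none fell, and the median was 0.40; 8 rose without wild-type replicate 1 and 7 in the fit on the 8-month arrays. The metallothionein gene Mt2 read 7645, 5310 and 2926 in the knockout, against 1473, 1608 and 1543 in the wild type (1.68 ± 0.19), and Mt1 12400, 10040 and 6371 against 3584 to 3910 (1.31 ± 0.14). In both, knockout replicate 1 was the highest and replicate 3 the lowest of the knockout arrays. Cyba and Cybb, the 2 chains of the membrane part of the phagocyte oxidase, rose by 1.70 ± 0.19 and 1.91 ± 0.29.

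Heat shock and endoplasmic reticulum stress genes were, like the interferon list, highest on knockout replicate 3. Of 25 measured, 6 rose and none fell, with a median of 0.21; by array the median was 0.12, 0.08 and 0.56, and replicate 3 was the highest for 21 of 25 genes. The chaperone gene Hspa1b read 300, 234 and 766 against 156 to 167 (1.10 ± 0.27), and 0.66 without replicate 3; it did not pass without wild-type replicate 1 (adjusted p = 0.0743) or in the fit on the 8-month arrays (0.0657). The small heat shock protein gene Hspb1 and Cryab did not share that order. Hspb1 read 1510, 907 and 516 against 173 to 251 (1.95 ± 0.24), and the lens crystallin and chaperone gene Cryab 1885, 2122 and 2023 against 1200 to 1233 (0.73 ± 0.08). The number of list members that rose was 3 without wild-type replicate 1 and 2 in the fit on the 8-month arrays, and 3 members fell without knockout replicate 3.

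Genes induced by glucocorticoid hormone, which the adrenal gland releases in stress, were led by knockout replicate 1. Of 22 measured, 15 rose and none fell, with a median of 0.98; by array it was 1.62, 0.62 and 0.61, and replicate 1 was the highest for 21 of 22 genes. The number that rose was 9 without replicate 1 and 9 in the fit on the 8-month arrays. Cdkn1a, an inhibitor of cyclin-dependent kinases that is also on the list of apoptosis and cell cycle arrest, read 1916, 273 and 234 against 81.1, 97.7 and 123 (2.15 ± 0.46, adjusted p = 0.00368), and 1.25 without replicate 1; it did not pass in the fit on the 8-month arrays (0.0629). Plin4 read 732, 222 and 68.1 against 11.6, 32.5 and 43.8 (2.59 ± 0.47). The NF-kappa-B inhibitor gene Nfkbia read 2938, 1550 and 1402 against 770 to 1000 (1.08 ± 0.18). Lcn2, Mt1 and Mt2 are members too, as described above. Lcn2 is also on the reactive astrocyte list, and Mt1 and Mt2 are also on that of oxidative and metal stress. Whether the hormone had a part in these changes was not tested.

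Of 20 genes of apoptosis and cell cycle arrest, 9 rose, none fell and the median was 0.49. Besides Cdkn1a, the tumour necrosis factor receptor gene Tnfrsf1a read 296, 297 and 174 against 67.6 to 116 (1.35 ± 0.18). The growth-arrest genes Gadd45g and Gadd45b rose by 1.21 ± 0.23 and 0.89 ± 0.18, and the survival factor gene Mcl1 by 0.63 ± 0.08. Of 30 immediate early genes, which neurons switch on within minutes of activity, 7 rose and none fell, and the median was 0.30 (0.49, -0.08 and 0.57 by array). The transcription factor gene Jund read 858, 887 and 642 against 509 to 603 (0.50 ± 0.12), and Klf4 159, 114 and 129 against 58.4 to 69.4 (0.86 ± 0.21). Jund did not pass without knockout replicate 2 (adjusted p = 0.0886) or in the fit on the 8-month arrays (0.0505). The synaptic activity gene Arc, named after its values were seen, read 56.6, 56.4 and 506 against 109 to 129, so that 2 knockout arrays lay below the wild type and 1 above it (-0.13 ± 0.48, adjusted p = 0.899). The number of immediate early genes that rose was 4 without wild-type replicate 1 and 3 in the fit on the 8-month arrays, and without knockout replicate 3, 7 members rose and 7 fell.

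**Figure D3:**
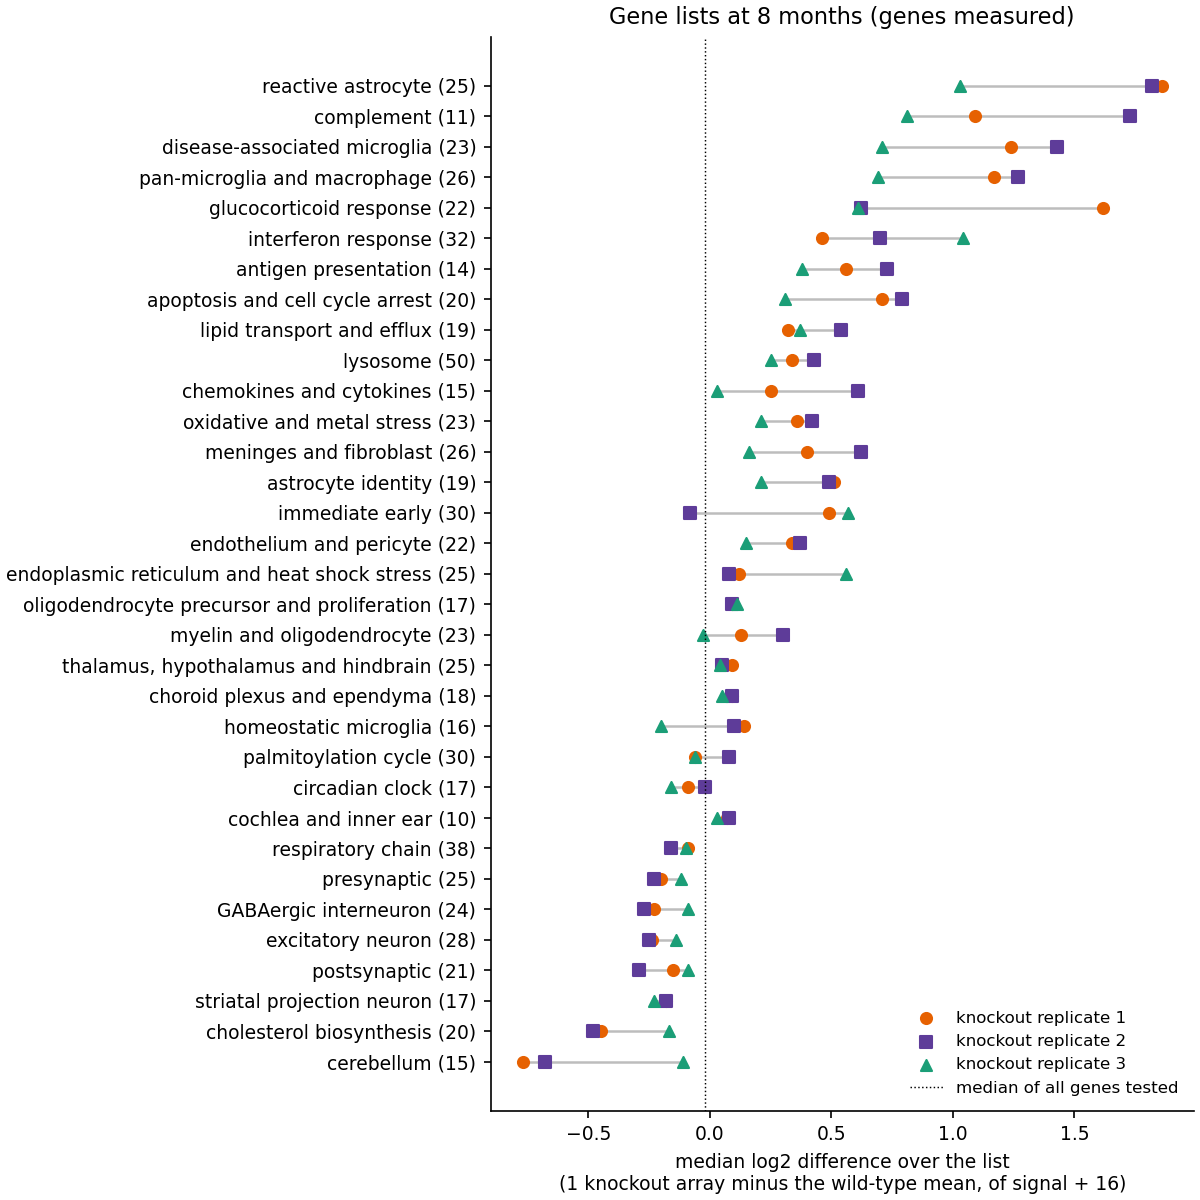
For each gene list with at least 10 genes measured, the median over its measured genes of the log2 difference between 1 knockout array and the wild-type mean at 8 months, with the number of genes measured in brackets; the grey line joins the 3 arrays and the dotted line is the median change of all 12492 genes, -0.02. Replicate 3 (triangle) lies nearest to 0 for the disease-associated and general microglia lists and both astrocyte lists, highest for the interferon and the endoplasmic reticulum and heat shock lists, and replicate 1 (circle) lies apart for the glucocorticoid list.

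Neuronal genes fell by small amounts and on fewer members. Of 28 excitatory neuron genes measured, 9 fell and none rose, with a median of -0.21. Lmo4, a cortical transcriptional cofactor, read 558, 601 and 644 in the knockout, against 866 to 884 in the wild type (-0.52 ± 0.07, limma adjusted p = 9.42e-05). The postsynaptic calmodulin-binding protein gene Nrgn read 1088, 1072 and 1410 against 1642 to 1791 (-0.54 ± 0.10). The groups of both were apart. The count of decreases was 5 without knockout replicate 2 and 4 in the fit on the 8-month arrays.

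Of 24 genes of GABAergic interneurons, 9 fell and none rose, with a median of -0.21. Calb1, a calcium buffer of interneurons and Purkinje cells, read 1692, 1842 and 2740 against 3065 to 3417 (-0.67 ± 0.11). Both Calb1 and Pvalb are also on the cerebellar list below, so these lists are not independent of each other. Gabrd, the delta subunit of extrasynaptic GABA receptors, read 261, 265 and 336 against 393 to 461 (-0.54 ± 0.10), and the potassium channel gene Kcnc2 fell by 0.54 ± 0.11. The neuropeptide gene Cck fell by 0.51 ± 0.11 and did not pass without knockout replicate 2 (adjusted p = 0.0667). The count was 5 without knockout replicate 1, 3 without replicate 2, 5 without wild-type replicate 3 and 4 in the fit on the 8-month arrays.

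Among presynaptic genes, 11 of 25 fell and none rose, with a median of -0.18. The syntaxin gene Stx1a, part of the vesicle fusion complex, read 908, 1000 and 1200 against 1390 to 1520 (-0.50 ± 0.08), and the complexin gene Cplx2 1166, 1150 and 1304 against 1482 to 1629 (-0.38 ± 0.07). The count was 6 without knockout replicate 1, 2 without replicate 2, 7, 7 and 6 without wild-type replicates 1, 2 and 3, and 3 in the fit on the 8-month arrays. Of 21 postsynaptic genes 3 fell (14.3%) and none rose; the count was 0 without knockout replicate 1 or replicate 2, 6 without replicate 3, and 1 without each wild-type array.

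Markers of single brain regions differed from each other. Of 17 striatal genes 6 fell, with a median of -0.27. The ion channel family gene Ano3 read 184, 163 and 184 against 271 to 299 (-0.59 ± 0.12), close together in the knockout. The striatal count was 1 without knockout replicate 2, 2 without wild-type replicate 1 and 2 in the fit on the 8-month arrays, and Ano3 did not pass without knockout replicate 2 (adjusted p = 0.0532). Of 25 genes of thalamus, hypothalamus and hindbrain 4 fell (16.0%, against 5.96% of all genes) and none rose. The list as a whole was not lower: its median was 0.09, with 14 changes above 0 and 11 below. Among the 4 that fell, Prkcd, a kinase of thalamic relay neurons, read 264, 265 and 224 against 412 to 425 (-0.69 ± 0.12). Ramp3, a calcitonin receptor partner of the same nuclei, read 56.1, 35.6 and 119 against 134 to 205 (-1.21 ± 0.24). This count was 2 without knockout replicate 1, without replicate 2, without wild-type replicate 1 or 2, and in the fit on the 8-month arrays, and 3 members rose without knockout replicate 3.

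Of 15 cerebellar genes 7 fell and none rose, with a median of -0.48, the lowest of any list. By array the median was -0.77, -0.68 and -0.11. Gdf10, a growth factor gene of Bergmann glia, read 121, 164 and 183 against 281 to 340 (-0.93 ± 0.12), and Icmt, a methyltransferase gene high in Purkinje cells, 238, 247 and 341 against 377 to 427 (-0.57 ± 0.11). The Purkinje cell gene Car8 read 791, 717 and 1922 in the knockout against 1623 to 1911, and Pcp2, another gene of these cells, 781, 700 and 1576 against 1396 to 1780. Both were chosen after their values were seen, and on knockout replicate 3 neither lay below the wild-type range. The summed signal of the 15 genes was 11891, 12334 and 16794 in the knockout, against 16977 to 18021 in the wild type. Whether the arrays held different shares of cerebellum was not tested. The count of decreases was 4 without knockout replicate 1, 3 without replicate 2, 4 without wild-type replicate 2 and 3 in the fit on the 8-month arrays.

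Of 38 respiratory chain genes 4 fell (10.5%), none rose and 34 did not pass. The median was -0.12, and for 18 of 38 the 3 knockout arrays lay below the 3 wild-type arrays, where 14.4% of all genes did. The ATP synthase gene Atp5g1 read 1094, 1054 and 1096 against 1312 to 1428 (-0.34 ± 0.08), and did not pass without knockout replicate 2 (adjusted p = 0.0732). The count was 0 without knockout replicate 2 and 7 without replicate 3, and 12 after quantile normalization. Of 17 circadian clock genes 3 fell (17.6%) and 2 rose (11.8%), against 5.96% and 6.97% of all genes. The output gene Dbp read 437, 661 and 1130 against 1354 to 1584 in its brighter probe set (-1.09 ± 0.19), and the repressor gene Nr1d2 1131, 1235 and 1615 against 1832 to 1931 (-0.53 ± 0.09). The hour of tissue collection is not in the labels, so its part was not tested. The 2 increases were 1 without knockout replicate 1 and 0 without knockout replicate 3, without any wild-type array and in the fit on the 8-month arrays.

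Myelin genes were mixed: of 23 measured, 5 rose (21.7%), 2 fell (8.7%) and 16 did not pass, and the median was 0.12. Of all genes 6.97% rose and 5.96% fell. Cldn11, the tight-junction protein of myelin, read 872, 958 and 655 against 455 to 467 (0.82 ± 0.13), and the actin-severing protein gene Gsn 1210, 1374 and 698 against 506 to 548 (0.97 ± 0.16). Ugt8a, which makes the myelin lipid galactosylceramide, read 236, 390 and 634 against 593 to 686 (-0.70 ± 0.20); its groups overlapped, and its call was lost without knockout replicate 1 (-0.38, adjusted p = 0.0942), without replicate 2 (0.0977) without any wild-type array (0.0545, 0.0765 and 0.0621) and in the fit on the 8-month arrays (0.144). The 5 increases were 2 without knockout replicate 2, 8 without replicate 3, 2 without wild-type replicate 1 and 3 without wild-type replicate 2 or 3; the 2 decreases were 0 without knockout replicate 1 or 2 or any wild-type array. In the fit on the 8-month arrays 3 rose and none fell. Of 17 genes of oligodendrocyte precursors and proliferation 1 rose (5.88%, against 6.97% of all genes), Sox4 (0.44 ± 0.11). Its call was lost without knockout replicate 1 (adjusted p = 0.0638), replicate 2 (0.104) or wild-type replicate 2 (0.0578), and in the fit on the 8-month arrays (0.0673). Without knockout replicate 3, 3 members rose.

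Of 22 endothelial and pericyte genes 7 rose and none fell, with a median of 0.27. Vcam1, an adhesion molecule for leukocytes, read 422, 389 and 352 against 153 to 215 (0.93 ± 0.13), and Icam1 163, 130 and 57.7 against 18.1 to 22.2 (1.76 ± 0.30). The count was 4 without knockout replicate 1, replicate 2, wild-type replicate 1 or wild-type replicate 2, and 3 in the fit on the 8-month arrays. Of 26 genes of meninges and fibroblasts 14 rose and none fell, with a median of 0.40; 7 rose without knockout replicate 2 and 6 in the fit on the 8-month arrays. The matrix proteoglycan gene Fmod read 629, 790 and 411 against 243 to 300 (1.10 ± 0.16), and the collagen gene Col1a2 237, 347 and 184 against 112 to 142 (0.94 ± 0.16). The summed signal of the 26 genes was 15926 to 18900 in the knockout, against 12585 to 14099 in the wild type, and whether more meninges were taken with the knockout tissue was not tested. Choroid plexus genes gave another picture: of 18 measured none passed, the median was 0.08 and the summed signals of the groups overlapped (14061 to 14807 and 13143 to 14312). By limma, none of 5 blood genes passed either.

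Beyond the lists, Cap1 and Ndufs5 changed by nearly the same amount on every array. Cap1, an actin-regulating protein, read 1256, 1226 and 1109 in the knockout, against 171, 158 and 129 in the wild type (2.85 ± 0.13, adjusted p = 7.72e-12), and Ndufs5, a subunit of complex I, 964, 1048 and 1147 against 2413 to 2606 (-1.24 ± 0.07, adjusted p = 2.93e-10). Cap1 is the next protein-coding gene to Ppt1 on chromosome 4, and 15 protein-coding genes lie between Ppt1 and Ndufs5, by the RefSeq order in GRCm38.p6. The part of this neighbourhood in the changes was not tested.

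The largest decrease after Ppt1 was that of Mid1, a ubiquitin ligase gene of the X chromosome, which read 40.5, 80.1 and 70.3 against 485, 866 and 301 (-2.46 ± 0.45, adjusted p = 0.00110). At 5 months 1 wild-type array read 67.5 for Mid1, within the range of the 8-month knockout, and the others 569 and 806. The limma effect on Mid1 was -2.61 at 3 months (adjusted p = 0.00216) and -1.27 at 5 months, where it did not pass (0.165). Erdr1, also on the X chromosome, read 1194, 1997 and 1666 against 4058 to 5526 (-1.5 ± 0.17). Gabra2, a subunit of synaptic GABA receptors, read 63.0, 110 and 110 against 240 to 271 (-1.29 ± 0.17), and the phosphatase gene Ptprk 24.9, 63.0 and 83.4 against 154 to 165 (-1.32 ± 0.22). At 8 months the groups of all 4 were apart. Each of the 4 calls held without any of the 6 arrays at 8 months.

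Scrt1, a transcriptional repressor gene of neurons, read 6.73, 15.0 and 17.1 against 44.6 to 77.7 (-1.30 ± 0.26), with 1 knockout array at background, and its call held with each of the 6 arrays left out in turn.

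Other large decreases lost their call without knockout replicate 2. Cckbr, the brain receptor of cholecystokinin, read 13.1, 18.8 and 91.9 against 94.1 to 129 (-1.47 ± 0.32), and the noncoding RNA gene Rian 552, 587 and 1509 against 1716 to 1789 (-1.20 ± 0.29). Both lost their call without knockout replicate 2 (adjusted p = 0.0609 and 0.0905), Cckbr also in the fit on the 8-month arrays (0.0756) and Rian under robust variance moderation (0.0644). Baalc (-1.36), Mprip (-1.27), Slc4a8 (-1.24), Sema7a (-1.21) and Kcnj9 (-1.21) did so too (adjusted p = 0.0768, 0.242, 0.184, 0.282 and 0.0523). Mprip then changed by -0.71 and Sema7a by -0.72. Some were also lost without another array. Mprip was lost without wild-type replicates 1 and 2 (0.0502 and 0.0719), Slc4a8 without knockout replicate 1 (0.104) and each wild-type array (0.151, 0.0702 and 0.0741), and Sema7a without knockout replicate 1 (0.0938), wild-type replicates 2 and 3 (0.0990 and 0.0825) and in the fit on the 8-month arrays (0.161). On 2 of the 3 knockout arrays Slc4a8 and Sema7a were at background, and on 1 array Cckbr and Mprip.

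For most calls, replicate 3 had the smallest effect: it was so for 1168 of the 1550 increases and 1165 of the 1597 decreases. The median change of the increases was 0.71, 0.72 and 0.40 on replicates 1, 2 and 3 and that of the decreases -0.51, -0.53 and -0.29. Its change had the opposite sign in 19 increases and 25 decreases. Some lists had another order, as described above: replicate 3 had the highest median for the interferon list and for the heat shock list, and replicate 1 for the glucocorticoid list. For the immediate early list replicate 3 was the highest for 17 of 30 genes and replicate 2 the lowest for 22.

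Genes that changed at least 2-fold with the narrowest range over the knockout arrays were, besides Cap1 and Ndufs5, the restriction factor gene Ifitm3, B2m, the Toll-like receptor gene Tlr13 and the collagen gene Col1a1. Ifitm3 read 850, 846 and 878 against 276 to 353, so that the knockout arrays differed by less than the wild-type arrays did (1.38 ± 0.12, adjusted p = 1.61e-07). Col1a1 read 40.2, 42.8 and 47.8 while all 3 wild-type arrays were at background, at least 3.41-fold higher. Tlr13 read 56.9, 64.3 and 63.4 against 14.3 to 28.8 (1.02 ± 0.27) and did not pass without knockout replicate 2 (adjusted p = 0.0790) or wild-type replicate 1 (0.133).

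Among genes that passed with at least a 2-fold change, the widest ranges were those of Ccn1, Apod, Plin4, Cdkn1a, Lyz1 and Socs3. The matrix signalling gene Ccn1 read 940, 197 and 50.4 against 24.8 to 49.5, and the lipocalin gene Apod 1176, 446 and 114 against 72.9 to 97.5. The cytokine signalling inhibitor gene Socs3 read 374, 238 and 45.1 against 20.2 to 40.6. For all 3, replicate 3 lay just above the highest wild-type array. Ccn1 changed by 2.15 ± 0.55 and by 1.23 without replicate 1 (adjusted p = 0.0501), and Apod by 1.99 ± 0.46 and by 1.26 without replicate 1. Without replicate 2 neither Ccn1 (0.0688) nor Apod (0.0576) passed, nor did they under robust variance moderation (0.0724 and 0.0552). Neither these 2 genes nor Socs3 (2.00 ± 0.40) passed in the fit on the 8-month arrays (0.0971, 0.0760 and 0.0613).

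**Figure D4:**
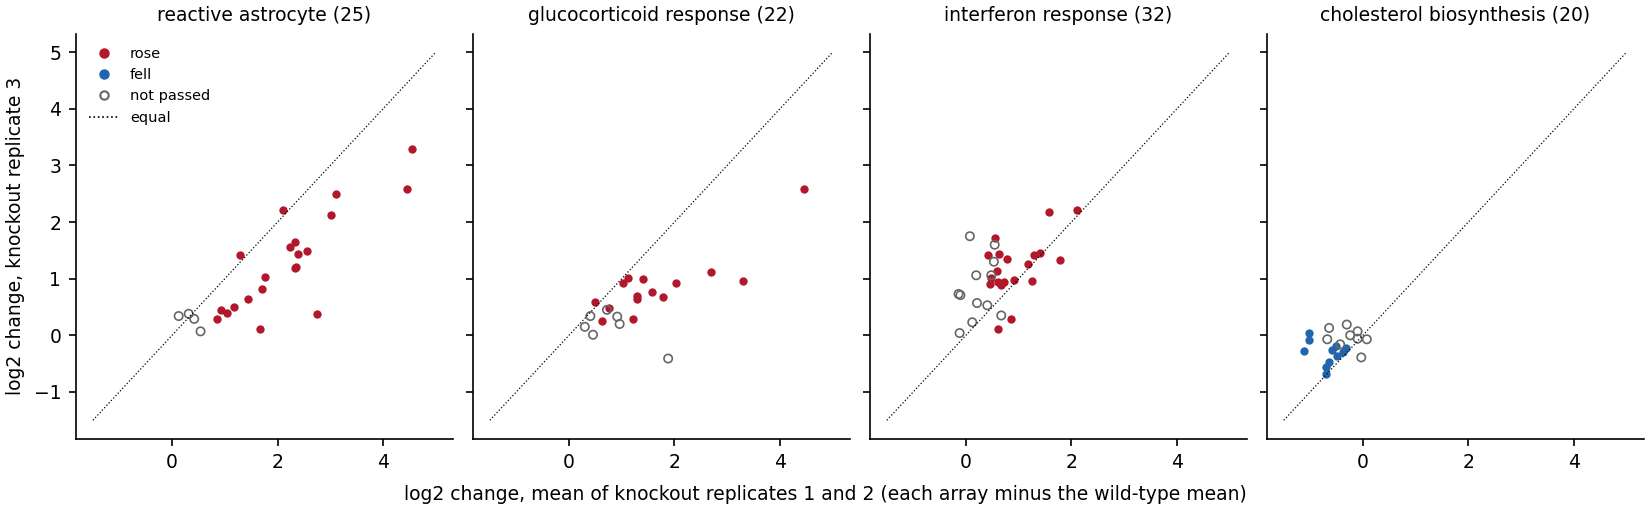
Log2 change on knockout replicate 3 against the mean of replicates 1 and 2 for the measured genes of 4 lists, each array minus the wild-type mean at 8 months; red genes rose, blue genes fell, open circles did not pass and the dotted line marks equal change. Reactive astrocyte and glucocorticoid genes lie mostly below the line, interferon genes mostly above it (replicate 3 highest for 24 of 32), and cholesterol genes lie above it because their decrease is smaller on replicate 3 (medians -0.45, -0.48 and -0.17).

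The knockout effect at 8 months was compared with that at 3 months in a term for the difference of effects. It was higher at 8 months for 194 probe sets (0.718%) and lower for 88 (0.326%), and 3905 had an unadjusted p under 0.05. Without the trend of variance with signal level limma made 0 calls in either direction. Leaving out single arrays moved the counts to 107 and 36 (knockout replicate 1), 85 and 26 (replicate 2), 948 and 1019 (replicate 3), 47 and 19 (wild-type replicate 1), 109 and 24 (wild-type replicate 2) and 78 and 18 (wild-type replicate 3).

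The difference of effects passed for 10 of 25 reactive astrocyte genes and 12 of 22 glucocorticoid genes, where 0.969% of all genes did. The median effect of the reactive astrocyte list was 0.47, 0.97 and 1.51 at 3, 5 and 8 months, that of the glucocorticoid list -0.26, 0.01 and 0.98. The interferon list stood at 0.96, 0.97 and 0.74, and none of its 32 genes passed in limma's test of the difference. Cholesterol synthesis stood at 0.08, 0.00 and -0.42, with 4 of 20 genes passing downward, where 0.208% of all genes did.

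The levels behind these differences shifted in both genotypes for some genes. Gpnmb read 79.2 ± 27.8 (SD, n = 3), 278 ± 51.2 and 1086 ± 687 in the knockout at 3, 5 and 8 months, while the wild type read 39.3, 33.5 and 32.4; the difference of effects was 3.59 (adjusted p = 0.00244). Mt2 read 2039, 3176 and 5294 at the 3 ages in the knockout, against 2506, 2355 and 1541 in the wild type (1.98, adjusted p = 0.00244). Other glucocorticoid genes were also lowest in the wild type at 8 months. There Plin4 read 84.8, 110 and 29.3, Cdkn1a 186, 162 and 100.5, and Nfkbia 1341, 1077 and 864. In the knockout, Plin4 read 39.7, 91.1 and 341, Cdkn1a 122, 205 and 808, and Nfkbia 1155, 1363 and 1963. For these genes the larger effect at 8 months holds both a higher knockout and a lower wild-type level. Col1a1 read 35.5, 45.0 and 43.6 in the knockout, while the wild type read 51.4 ± 11.2 at 3 months and 6.70 ± 1.51 at 8 months, where all 3 arrays were at background. The fitted difference of 1.82 (adjusted p = 0.0167) is therefore taken against a level that was not measured above background.

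The difference of effects passed for 2 of 22 endothelial and pericyte genes, Mfsd2a and Slc2a1, and in both the effect changed sign. Mfsd2a, a lipid transporter of brain endothelium, read 134 ± 16.6 in the knockout, against 270 ± 26.9 in the wild type, at 3 months, a fall by 0.93 on the log2 scale (adjusted p = 0.0315). At 8 months it read 465, 219 and 176 against 129 to 145, a rise by 0.83 ± 0.21, and by 0.48 without knockout replicate 1, where it did not pass (adjusted p = 0.0570), nor without wild-type replicate 1 (0.0644) or in the fit on the 8-month arrays (0.0916). The glucose transporter gene Slc2a1 fell by 0.58 at 3 months (adjusted p = 0.0383) and rose by 0.68 ± 0.14 at 8 months. The difference between the effects was 1.76 for Mfsd2a and 1.26 for Slc2a1 (adjusted p = 0.00705 and 0.00376).

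**Figure D5:**
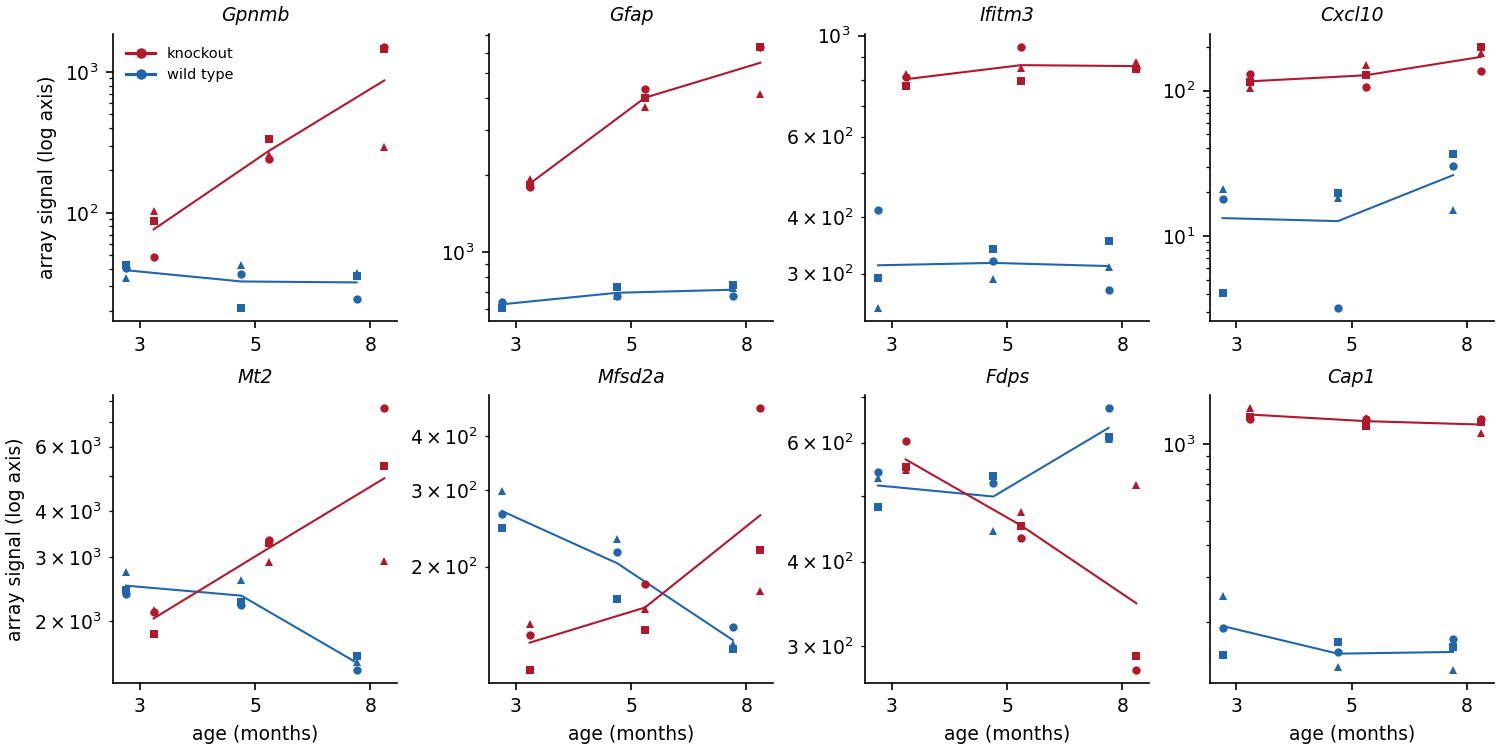
Array signal on a log axis at 3, 5 and 8 months for 8 genes, wild type in blue and knockout in red, 3 arrays a group with a marker shape for each replicate and a line through the means of log2 signal plus 16. Gpnmb and Gfap climb in the knockout, and Ifitm3, Cxcl10 and Cap1 are apart by a like amount at each age. For Fdps the groups part most at 8 months, as the wild-type level moves too. For Mt2 the knockout mean lies below the wild type at 3 months and above it at 5 and 8 months, and the wild-type level drops at 8 months. For Mfsd2a the knockout lies below the wild type at 3 months and above it at 8 months.

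Against 5 months, limma called no probe set in either direction for a difference of effects (smallest adjusted p = 0.15, with 3088 at an unadjusted p under 0.05). With array weights, which gave knockout replicate 3 a weight of 0.311 against 0.653 and 1.07 for replicates 1 and 2, 97 were higher and 88 lower. Without knockout replicate 3 the counts were 543 and 542, and without replicate 2 they were 1 and 0.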

How the data were processed

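Total RNA of 18 samples was hybridised, 1 array each, in 6 groups of genotype and age with 3 arrays a group. The deposited values are linear signal intensities, 1 per probe set, which the authors scaled to a common mean: the 2% trimmed mean was 150.0 on each array. For the software, the background correction and the genome build, the entry is the same: not given in the sources used here. The signal intensities were used as deposited, without further normalization, because the arrays' log2 medians spanned 0.069. A scaled signal of this kind keeps no count of molecules, so precision rests on the number of arrays.

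A pseudocount of 16 was added and log2 taken. Probe sets in the lowest 40% by mean signal over 18 arrays were left out, as were 64 controls. The others were fitted with limma 3.58.1 in R 4.3.3 (lmFit, eBayes with a variance trend) with 6 groups and sex as terms, so that the spread is pooled over all ages. Contrasts were knockout minus wild type at 8 months and its difference from the effects at 3 and 5 months, adjusted by Benjamini-Hochberg over 27022 probe sets, with a threshold of 0.05. Of these probe sets 22963 carried 1 gene symbol in the platform annotation, 571 several and 3488 none; the last 2 kinds were tested and not named. A gene's brightest probe set stands for it in the lists. Background was the 95th percentile of 27 bacterial control probe sets on each array.

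Named genes were Ppt1, up to 15 with the largest change each way, in each list up to 4 that passed with the lowest p, up to 6 each way with the largest difference from the earlier effects, and up to 6 with the narrowest and the widest range over the knockout arrays. The comparison, the lists and these rules were chosen with earlier results of these data known. On simulated data with changes of 0.5 and 1 on the log2 scale, the fit recovered 25% and 78% of the changed probe sets and called 7 that were unchanged. The simulation gave each probe set the same spread in all 6 groups and independent noise on each array. In the data the knockout arrays at 8 months spread more than the other groups. The simulated rates therefore cannot be carried over to this comparison. The alternatives tried were other normalizations, pseudocounts, filters, variance models and array weights, and a fit of all arrays without sex. Others were a fit on the 8-month arrays, also without sex, 1 probe set per gene, and leaving out each array at 8 months. Promoter sequences are RefSeq's, of GRCm38.p6.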

Additional observations from a re-analysis of the deposited data

Results flagged for a closer look

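For 44 of the named probe sets the knockout effect at 8 months differed from that at 3 months by the test of the difference itself, at limma adjusted p-values from 0.000379 to 0.0472; values are differences of log2 changes, 8 minus 3 months. Microglial genes were Gpnmb (3.59), Lyz1 (2.54), Lyz2 (2.00), Lgals3 (1.98), Itgb2 (1.45), Fcgr2b (1.44) and Cd9 (0.83). Genes of astrocytes were Lcn2 (3.27), Serpina3n (2.25), Osmr (1.58), Vim (1.5), S100a6 (1.33), Aqp4 (0.89), Mlc1 (0.83) and Clu (0.52), with Gfap at 1.49 and 1.39 in its 2 probe sets. Genes of stress, hormone response and arrest were Plin4 (3.41), Cdkn1a (2.67), Mt2 (1.98), Mt1 (1.53), Nfkbia (1.29), Tnfrsf1a (1.07) and Cryab (0.67), with Hspb1 at 2.49 and 1.89. Others that differed upward were Col1a1 (1.82, with the 3 wild-type arrays at 8 months at background), Mfsd2a (1.76), Slc2a1 (1.26), Cldn11 (1.18), Abca1 (1.06), Gsn (1.01) and Ctsd (0.81).

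The effect was lower at 8 than at 3 months for the cholesterol synthesis genes Fdps (-1.0), Sqle (-0.78), Fdft1 (-0.58) and Hmgcs1 (-0.53). It was also lower for Serpinb1a (-1.70), Ptprk (-1.58), Abcd2 (-1.40), Trim59 (-1.33), Cabp7 (-1.31), Vamp1 (-1.29) and Gabrd (-0.66). Serpinb1a rose by 1.10 at 3 months and changed by -0.60 at 8 months, where it did not pass (adjusted p = 0.0800).

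The spike-in control probe sets, which no comparison uses, stood 0.425 above their medians over the 18 arrays (log2) on knockout replicate 3. They stood between -0.017 and 0.078 on the other 5 arrays at 8 months.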

How the results depend on the processing

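None of the 154 named probe sets reversed under any setting that was run; of 150 called at 8 months, 103 kept their call in every setting, 47 lost it in at least 1, and 119 kept it in the fit on the 8-month arrays. The counts moved more. The 1550 increases and 1597 decreases became 695 and 490 in the fit on the 8-month arrays and 930 and 826 with 1 probe set per gene, and the decreases became 1030 without the variance trend. Leaving out 1 array gave 733 to 2403 increases and 533 to 2966 decreases. With arrays centred on the median, 39.8% of the calls were increases, against 49.3%. The 194 effects higher and 88 lower at 8 than at 3 months became 123 and 38 without the filter, 0 and 0 without the trend and 633 and 571 with array weights; the lower ones became 34 with 1 probe set per gene. Leaving out 1 array gave 47 to 948 and 18 to 1019. Against 5 months, the 0 and 0 became 97 and 88 with array weights, and 0 to 543 and 0 to 542 on leaving out 1 array. Fewer samples or features tested accompany the left-out arrays, the 8-month fit and 1 probe set per gene. The 8-month fit also lacked the term for sex, and the part of each was not tested. For the other settings the cause was not tested. No paired analysis was possible because no 2 samples share a number in the labels. Probe sets near background have changes that the pseudocount shrinks.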
